A study of Mus musculus with 6 samples.

Results

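The chromatin accessibility of class IIa histone deacetylase genes and of the genes for their corepressor partners was examined in mouse muscle nuclei with and without the histone variant H2A.Z in muscle fibres. The genes were Hdac4, Hdac5, Hdac7, Hdac9, Hdac3 and Ncor1. Their members are the ATAC-seq intervals of the deposited count table that overlap the body of 1 of these 6 genes, or lie within 1 kb of 1 of its transcription start sites (TSSs) in GENCODE vM1, on the mm9 genome. The rule found 32 of the 39768 intervals, in 5 of the 6 genes. Hdac4 and Hdac7 had 10 intervals each, Hdac5 had 8, Ncor1 had 3, Hdac3 had 1, and Hdac9 had 0. In ATAC-seq the transposase Tn5 cuts exposed DNA between nucleosomes, and the authors counted the fragment ends in each interval. The 6 libraries came from 50000 nuclei each, of muscle from C57BL/6 mice aged 7 weeks (tibialis anterior in the labels, hind limb muscles in the methods): 3 CTL libraries, floxed at H2afz and H2afv, the genes of both H2A.Z isoforms, and lacking Cre (titled WT in the labels), and 3 H2A.Z dKO libraries, floxed alike and carrying HSA-Cre. All 6 carry the floxed alleles, so no library has unmodified H2A.Z genes. The HSA promoter drives Cre in muscle fibres, and nuclei of other cell types in the muscle keep both genes.

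Class IIa deacetylases shuttle between nucleus and cytoplasm. In the nucleus they bind MEF2 transcription factors and hold their target genes silent. They have little deacetylase activity of their own and recruit HDAC3 with the corepressor NCoR. Kinases of the CaMK, PKD, SIK and AMPK families phosphorylate them, 14-3-3 proteins then bind them, and they leave the nucleus. In skeletal muscle they link the activity of the nerve to gene expression, and Hdac4 is known for its induction after denervation. The libraries come from innervated muscle only.

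The sequences of 6 intronic intervals and 3 promoters are shown because the results below turn on them. All 6 genes lie on the minus strand, and each sequence is given 5′ to 3′ on that strand. Capitals mark matches, on either strand, to the motifs CTA and TAG with any 4 bases between them (MEF2), CAGCTG and CACCTG (E boxes), TGACGTCA (CRE), GGGCGG (GC box), the NRF1 palindrome, TGANTCA (AP-1) and CCGGAAGT (ETS). The first 3 intervals are those in which the CTL and H2A.Z dKO libraries did not overlap. The next pair had the smallest p-values among intervals with lower counts in H2A.Z dKO, and Peak_26154 was the gene-body interval of Hdac5 with the highest level. None of the stretches overlaps an annotated exon.
Peak_1099, Hdac4, chr1:94013042-94013080: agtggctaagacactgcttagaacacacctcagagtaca
Peak_26155, Hdac5, chr11:102078195-102078225: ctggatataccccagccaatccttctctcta
Peak_32862, Hdac7, chr15:97654648-97654713: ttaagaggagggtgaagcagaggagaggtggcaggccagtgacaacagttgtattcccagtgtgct
Peak_1098, Hdac4, chr1:93997133-93997324: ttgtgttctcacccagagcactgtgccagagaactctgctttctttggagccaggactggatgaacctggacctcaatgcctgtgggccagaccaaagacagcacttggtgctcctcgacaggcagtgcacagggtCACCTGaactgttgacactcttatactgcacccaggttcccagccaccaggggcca
Peak_1094, Hdac4, chr1:93863699-93863770: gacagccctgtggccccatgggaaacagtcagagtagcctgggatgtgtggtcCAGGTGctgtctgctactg
Peak_26154, Hdac5, chr11:102078017-102078145: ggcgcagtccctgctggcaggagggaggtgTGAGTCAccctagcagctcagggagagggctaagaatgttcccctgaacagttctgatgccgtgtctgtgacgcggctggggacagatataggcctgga

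The 3 promoters are the 250 bases upstream of a TSS in RefSeq, whose promoter sequences (GRCm38.p6) each matched mm9 exactly and at 1 place. RefSeq has promoters for Hdac4, Hdac5, Hdac7, Hdac9 and Ncor1 in the table used here. The promoter of Hdac4 is shown because it lies inside the most accessible interval found for any of the genes, which is outside the rule. Most of that of Hdac5 lies inside Peak_26159, which ends at 102091711, and that of Hdac9 had no interval.
Hdac4, chr1:94076919-94077168: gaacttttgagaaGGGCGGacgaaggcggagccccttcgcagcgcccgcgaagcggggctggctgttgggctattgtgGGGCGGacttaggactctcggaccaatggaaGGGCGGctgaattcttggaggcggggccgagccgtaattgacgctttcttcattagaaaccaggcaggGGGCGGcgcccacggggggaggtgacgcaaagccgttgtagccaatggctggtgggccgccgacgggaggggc
Hdac5, chr11:102091487-102091736: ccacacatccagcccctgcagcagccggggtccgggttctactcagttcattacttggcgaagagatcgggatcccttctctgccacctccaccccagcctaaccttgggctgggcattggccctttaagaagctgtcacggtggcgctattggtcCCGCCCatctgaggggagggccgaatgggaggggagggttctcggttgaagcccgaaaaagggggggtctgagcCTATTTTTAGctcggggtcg
Hdac9, chr12:35213755-35214004: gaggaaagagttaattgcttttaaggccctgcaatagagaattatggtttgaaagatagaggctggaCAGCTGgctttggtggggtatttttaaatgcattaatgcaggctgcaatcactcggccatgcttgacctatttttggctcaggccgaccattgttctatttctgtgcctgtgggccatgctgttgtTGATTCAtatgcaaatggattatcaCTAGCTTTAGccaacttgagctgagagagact
The Hdac4 stretch has 4 GC boxes and 23 CpG in 250 bases. The Hdac5 stretch has a GC box and a MEF2 match, with 12 CpG. The Hdac9 stretch has a MEF2 match, an E box and an AP-1 match, and 2 CpG.

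Counts in all intervals summed to between 3520008 and 6117245 per library, and a member interval had a median of 71.6 counts per library, against 67.3 over all intervals. H2A.Z dKO replicate 1 stood apart: its chi-square per interval against the other 5 libraries was 3.66 to 4.80, and that of every other pair was 1.45 to 2.13. The main results that rest on it are given without it as well. Nothing in the labels says that the libraries of a group came from separate mice, so the p-values measure the spread between these libraries. The counts in 2 intervals inside the floxed segment of H2afz, the gene for H2A.Z-1, averaged 12.4 CPM, which are counts scaled by the library total, in CTL against 11.3 with the H2A.Z dKO label (SD 2.80 and 1.52, n = 3 each), a two-sided p of 0.6 by exact permutation, and no interval lies in that of H2afv. Deletion in muscle fibres would lower the counts in H2afz, and no fall beyond the spread was seen. Nuclei of other cell types keep the segment, and how much of the counts comes from them was not tested. The counts therefore do not check the label, other measures of H2A.Z were not analysed here, and directions below are between the libraries as labelled. Of 10 markers of muscle fibres, 8 had a promoter interval, with 503 to 625 CPM in all in CTL and 494 to 649 in H2A.Z dKO, whereas Myh1 and Mylpf had none. None of 7 macrophage and 4 satellite cell markers had one. Of 7 fibroblast markers 4 had one, with 77.2 to 94.8 CPM in CTL and 93.6 to 100.5 in H2A.Z dKO, and of 4 smooth muscle and pericyte markers 2 had one, with 30.4 to 44.9 and 36.6 to 48.0 CPM.

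To ask how accessible the promoters of the members are, counts were divided by the width of each interval and by the library's counts in all intervals (RPKM), and each gene was represented by its promoter interval of highest mean RPKM. Hdac5 came first with a mean of 190.0 RPKM over the 6 libraries (154.8 to 237.6). Its leading interval, Peak_26158, lies inside Peak_26156, which had a mean of 170.2 RPKM. Ncor1 followed with 170.0 (160.5 to 181.4), then Hdac7 with 149.9 (119.5 to 227.0) and Hdac3 with 131.7 (122.5 to 139.9). The ranges of these 4 neighbours overlapped: Hdac5 lay above Ncor1 in 5 of 6 libraries, Ncor1 above Hdac7 in 5 and Hdac7 above Hdac3 in 3. By the rule, Hdac4 came last with 77.5 RPKM (44.8 to 101.8), below Hdac3 in all 6 libraries. Among the 10980 protein-coding genes with a promoter interval, these levels were at percentile 70.8 for Hdac5, 61.2 for Ncor1, 49.4 for Hdac7, 36.98 for Hdac3 and 5.36 for Hdac4. With all promoter intervals of a gene summed per summed width, means were 161.9 RPKM for Hdac5, 146.1 for Ncor1, 131.7 for Hdac3, 127.2 for Hdac7 and 69.6 for Hdac4. Hdac7 was then below Hdac3. The percentiles became 56.8, 46.9, 36.98, 34.2 and 2.85. They rank a gene's average against the highest interval of every other gene, which lowers them for genes with several intervals.

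The place of Hdac4 in this order depended on the annotation. The GENCODE vM1 models of Hdac4 span chr1:93825362-94044970, 219609 bp. The only intervals within 1 kb of one of their 3 TSSs, Peak_1092 and Peak_1093, lie 143 and 306 bp upstream of a short separate model at the 3′ end. The RefSeq TSS of Hdac4 lies at 94076918, 31948 bp upstream of the nearest vM1 TSS, and inside Peak_1102 (chr1:94076701-94077306, 606 bp). Peak_1102 had 348.0, 369.3 and 431.3 RPKM in CTL replicates 1 to 3 and 327.6, 352.5 and 330.3 in H2A.Z dKO replicates 1 to 3. With a mean of 359.8 RPKM it lay above the leading interval of Hdac5 in all 6 libraries, at percentile 99.1 of the same genes. Peak_1103 (chr1:94077341-94077605), also within 1 kb of that TSS, had a mean of 221.0 RPKM. Both are outside the 32 members, and this second placing of Hdac4 was chosen after the data were seen.

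**Figure D1:**
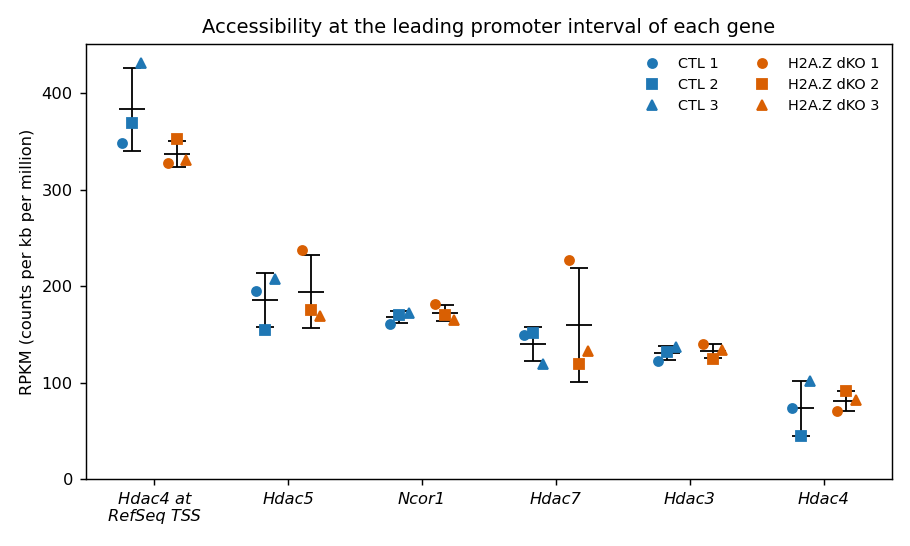
RPKM at the promoter interval of highest mean level of each gene, in the 3 CTL (blue) and 3 H2A.Z dKO (orange) libraries, with the symbol giving the replicate; horizontal bars and whiskers are the mean and SD of a group. Hdac4 is highest at its RefSeq TSS (327.6 to 431.3) and lowest at the interval found by the GENCODE vM1 rule (44.8 to 101.8), and H2A.Z dKO replicate 1 is the highest point at Hdac5, Hdac7, Hdac3 and Ncor1.

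Hdac9 had no interval in the 481304 bp of its vM1 body (chr12:34732451-35213754). The nearest interval lay 517697 bp away, and the RefSeq TSS farther upstream, at 35601767, was 129684 bp from it. Regions of Hdac9 outside the count table were not analysed here.

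**Figure D2:**
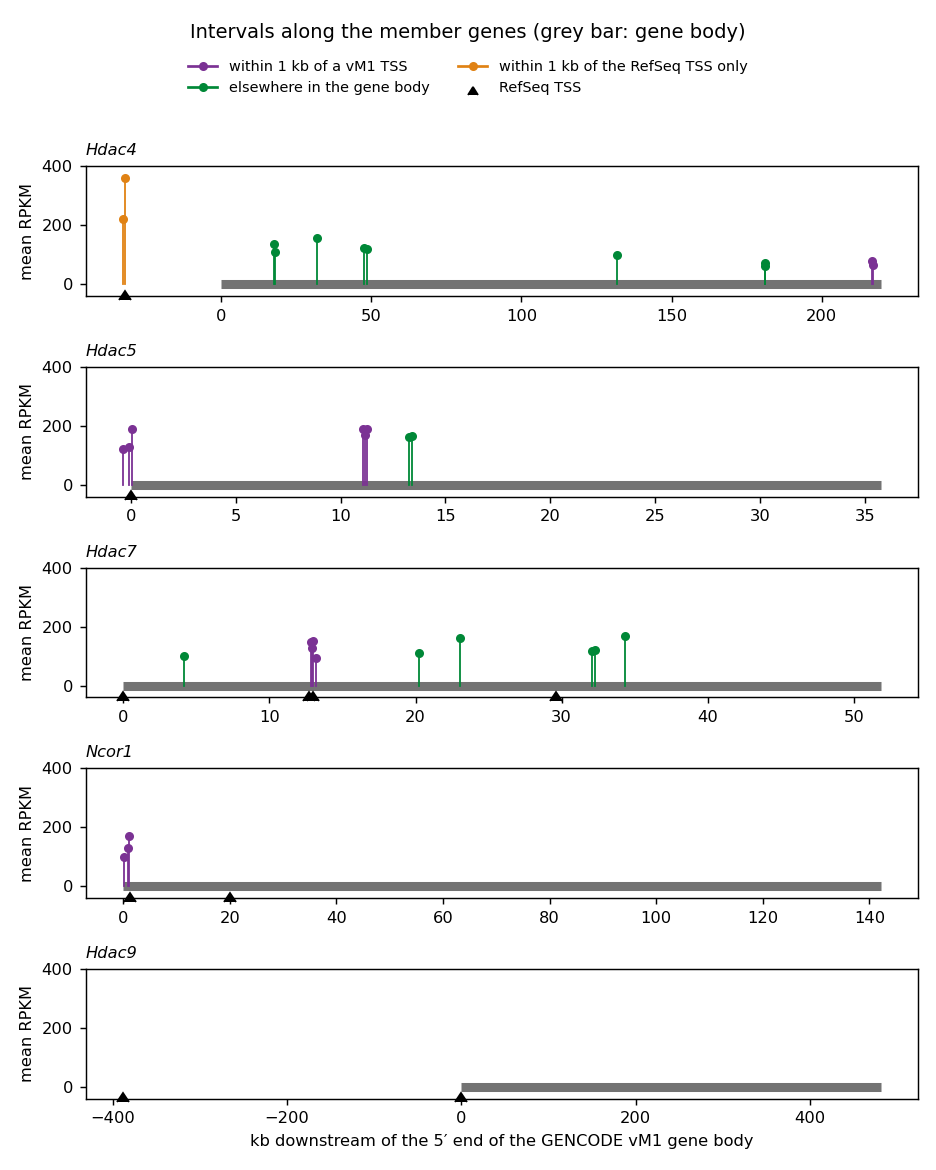
Mean RPKM over the 6 libraries (stems) of each interval along Hdac4, Hdac5, Hdac7, Ncor1 and Hdac9, against distance in kb from the 5′ end of the GENCODE vM1 gene body (grey bar), with RefSeq TSSs as triangles; Hdac3, with 1 interval, is not drawn. The intervals at the RefSeq TSS of Hdac4 stand upstream of its vM1 body, Hdac5 and Hdac7 have promoter intervals in the interior of the gene, and Hdac9 has no interval.

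The main comparison asked whether any of these intervals differed between H2A.Z dKO and CTL. No member did: 0 of 32 passed an adjusted p of 0.05 in edgeR's quasi-likelihood test, where 0% of all 39768 intervals did. At an unadjusted p of 0.05, 0 of 32 passed, against 4.95% of all intervals. Without H2A.Z dKO replicate 1, 0 of 32 passed at that level, against 7.95% of all intervals. In DESeq2, 0 members passed at an adjusted and 0 at an unadjusted p of 0.05, where 0 and 1.90% of all intervals did. The smallest adjusted p of a member was 0.972 in edgeR and 0.9998 in DESeq2. Log2 fold changes ran from -0.40 to 0.49 with a median of 0.03, against a median of 0.01 over all intervals, and 19 of 32 were positive, against 52.5% of all. Without H2A.Z dKO replicate 1, 11 of 32 were positive. All 32 confidence intervals lay within a 2-fold change in either direction, as did 91.4% of those of all intervals. Those of 14 of the 32 (43.8%) lay within a 1.5-fold change, against 49.6% of all. In 3 of 32 intervals (9.38%), Peak_1099, Peak_26155 and Peak_32862, every H2A.Z dKO library was above every CTL library, and no interval had every one below. Groups did not overlap in 10.6% of all intervals, with H2A.Z dKO higher in 5.26% and lower in 5.3%.

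Counts were also summed per gene. Of the 5 sums 4 had a positive log2 fold change, against 52.8% of all genes, and 2 had one without H2A.Z dKO replicate 1. They gave 0 of 5 genes at an adjusted p of 0.05 in edgeR, where 0% of 12005 protein-coding genes passed. At an unadjusted p of 0.05 they gave 0, where 4.16% passed. DESeq2 gave 0 and 0, where 0 and 299 of the 12005 genes passed. None of the 5 sums had groups that did not overlap, against 10.6% of all genes (4.41% higher and 6.21% lower in H2A.Z dKO). Confidence intervals of the fold change were 0.808 to 1.11 for Hdac4, 0.890 to 1.23 for Hdac5, 0.922 to 1.30 for Hdac7, 0.861 to 1.24 for Hdac3 and 0.912 to 1.23 for Ncor1.

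**Figure D3:**
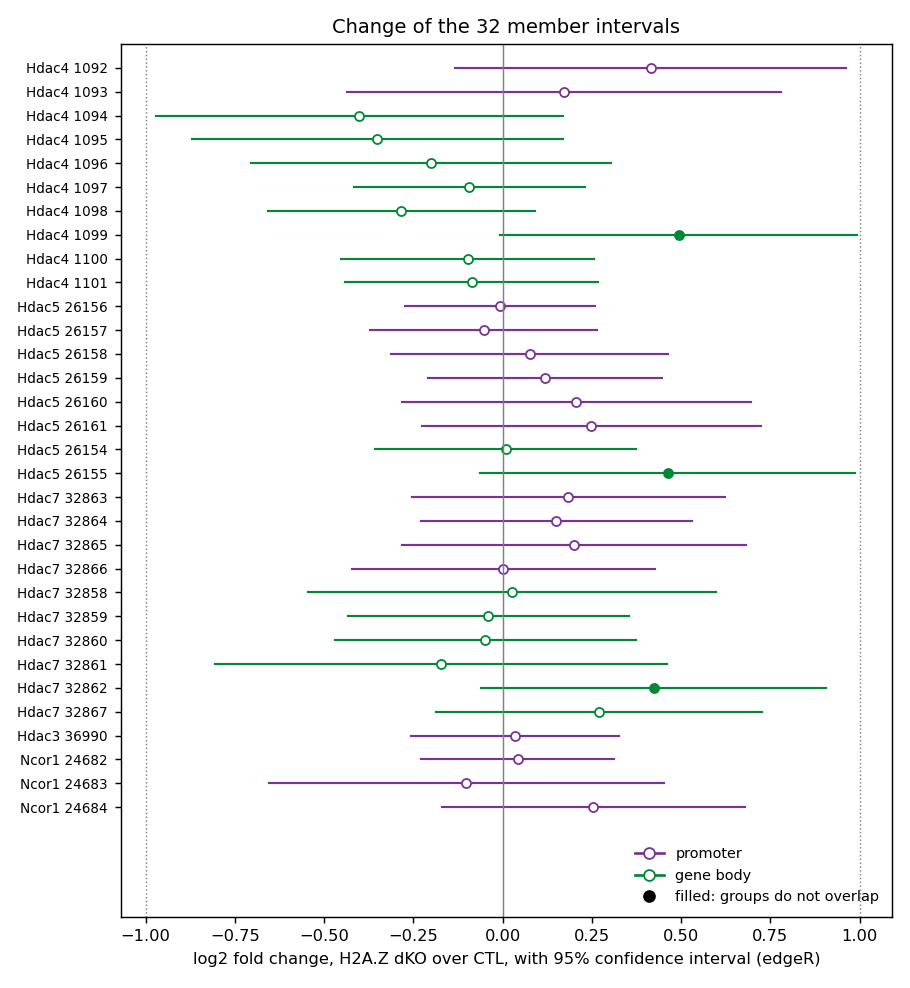
Log2 fold change (H2A.Z dKO over CTL) of the 32 member intervals with 95% confidence intervals from edgeR, in purple for promoter and green for gene-body intervals; dotted lines mark a 2-fold change. The values run from -0.40 to 0.49, every confidence interval lies inside the dotted lines and includes 0, and the 3 filled points are intervals whose groups do not overlap.

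Hdac4, the class IIa deacetylase best known in denervated muscle, had 8 intronic intervals beside the pair at its 3′ model. The sum over its 10 intervals was 168.9, 134.6 and 137.2 CPM in CTL replicates 1 to 3 and 126.7, 144.0 and 144.0 CPM in H2A.Z dKO replicates 1 to 3. CTL replicate 1 was the highest and H2A.Z dKO replicate 1 the lowest, and the others lay close together. This gave a log2 fold change of -0.08 (SE 0.11, edgeR adjusted p = 0.977). With the intervals at the RefSeq TSS added it was -0.13 (SE 0.09, adjusted p = 0.971). Without CTL replicate 1 the sum of 10 intervals changed direction, to 0.04.

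Peak_1099, an intronic interval of 39 bp, had the highest level in the gene body of Hdac4 and the smallest p of all members. Its counts were 34, 20 and 19 in CTL replicates 1 to 3 and 43, 36 and 32 in H2A.Z dKO replicates 1 to 3, or 142.5, 110.8 and 138.4 RPKM against 187.7, 202.9 and 163.4. All 3 H2A.Z dKO libraries were above the 3 CTL libraries. The log2 fold change was 0.49 (SE 0.24, 95% confidence interval -0.01 to 0.99, edgeR adjusted p = 0.972), and 0.45 without H2A.Z dKO replicate 1. The other 7 intronic intervals of Hdac4 had negative log2 fold changes, from -0.40 to -0.09.

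Of these, Peak_1098 (192 bp) had the smallest p. Its RPKM were 160.9, 109.1 and 131.7 in CTL replicates 1 to 3 and 108.2, 108.7 and 115.1 in H2A.Z dKO replicates 1 to 3. The H2A.Z dKO values lay together near the lowest CTL value, and the groups overlapped (log2 fold change -0.28, SE 0.18, edgeR adjusted p = 0.972). Without CTL replicate 1, its highest library, the value was -0.11, and without CTL replicate 2 it was -0.41. Peak_1094 (72 bp) had 90.8, 63.0 and 94.7 RPKM in CTL replicates 1 to 3 and 44.9, 85.5 and 60.9 in H2A.Z dKO replicates 1 to 3. Its log2 fold change was -0.40 (SE 0.27, edgeR adjusted p = 0.972), with -0.21 without H2A.Z dKO replicate 1, its lowest library, and -0.64 without H2A.Z dKO replicate 2, its highest in that group.

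At the RefSeq TSS of Hdac4, Peak_1102 had a log2 fold change of -0.18 (SE 0.10, 95% confidence interval -0.39 to 0.02, edgeR adjusted p = 0.972), and Peak_1103 one of -0.13 (SE 0.14, adjusted p = 0.985). The groups overlapped in both, and the confidence interval of Peak_1102 placed H2A.Z dKO at 0.765 to 1.01 times CTL. Without CTL replicate 3 the values were -0.091 for Peak_1102 and -0.018 for Peak_1103, and with any other library left out they ran down to -0.25 and -0.28. At the 3′ model, Peak_1093 had 74.0, 44.8 and 101.8 RPKM in CTL replicates 1 to 3 and 70.7, 91.2 and 82.7 in H2A.Z dKO replicates 1 to 3. These values come from 11 to 24 counts, and the log2 fold change of 0.17 (SE 0.29, edgeR adjusted p = 0.993) turned to -0.07 without CTL replicate 2.

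Hdac5, a class IIa deacetylase that CaMK and AMPK signals send out of the nucleus, had promoter intervals at its 5′ end and at a pair of internal TSSs. Of its 19 annotated TSSs 9 had an interval within 1 kb and 10 had none, among them the 9 TSSs from 102057872 to 102062130, whose nearest interval lay 6764 to 11022 bp away. Peak_26159 and Peak_26160, which it contains, and Peak_26161 lie at the 5′ end of the gene, and Peak_26156, which contains Peak_26157 and Peak_26158, covers the TSSs at 102080242 and 102080243. Fragment ends in the shared parts count more than once. The 8 intervals summed to 220.9, 205.0 and 222.4 CPM in CTL replicates 1 to 3 and 258.1, 196.3 and 216.3 CPM in H2A.Z dKO replicates 1 to 3. The highest and the lowest sum were both H2A.Z dKO libraries, replicates 1 and 2. The log2 fold change was 0.06 (SE 0.11, edgeR adjusted p = 0.977) and -0.06 without H2A.Z dKO replicate 1.

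The leading promoter interval, Peak_26158 (134 bp), at the internal TSSs, had 195.2, 154.8 and 207.8 RPKM in CTL replicates 1 to 3 and 237.6, 175.5 and 169.4 in H2A.Z dKO replicates 1 to 3. Its log2 fold change of 0.08 (SE 0.19, edgeR adjusted p = 0.993) turned to -0.13 without H2A.Z dKO replicate 1 and to -0.04 without CTL replicate 2. Peak_26160, 73 bp at the 5′ TSSs, showed the highest single value of any member, 282.2 RPKM in H2A.Z dKO replicate 1, while the other 5 libraries lay between 144.5 and 183.6. In an intron, 2161 bp downstream of the nearest TSS, Peak_26154 had 171.1, 172.5 and 152.0 RPKM in CTL replicates 1 to 3 and 154.4, 156.7 and 189.9 in H2A.Z dKO replicates 1 to 3. Its log2 fold change was 0.01 (SE 0.18, edgeR adjusted p = 0.999).

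Peak_26155, 31 bp and next to Peak_26154, was the other interval of smallest p in the upward direction. It had 22, 23 and 15 counts in CTL replicates 1 to 3 and 34, 28 and 28 in H2A.Z dKO replicates 1 to 3, or 116.0, 160.3 and 137.5 RPKM against 186.7, 198.5 and 179.9. The groups did not overlap. With a log2 fold change of 0.46 (SE 0.25, 95% confidence interval -0.06 to 0.99, edgeR adjusted p = 0.972), it passed no threshold, and without H2A.Z dKO replicate 1 the value was 0.45.

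Hdac7, the class IIa deacetylase known for its role in endothelial cells and thymocytes, had 4 promoter intervals and 6 intronic ones. The promoter intervals lie at 4 of the 12 annotated TSSs, in the interior of the gene, and the RefSeq TSSs at 97674933 and 97645294 had no interval within 1 kb. Peak_32864 contains Peak_32865 and Peak_32866, so fragment ends there count more than once in the sum. The 10 intervals summed to 146.1, 143.9 and 132.4 CPM in CTL replicates 1 to 3 and 180.6, 140.2 and 136.2 CPM in H2A.Z dKO replicates 1 to 3. H2A.Z dKO replicate 1 was the highest, and the other pair lay within the CTL range. The log2 fold change was 0.13 (SE 0.11, edgeR adjusted p = 0.971) and -0.03 without that replicate.

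The leading promoter interval of Hdac7, Peak_32865 (114 bp), had 149.1, 151.6 and 119.6 RPKM in CTL replicates 1 to 3 and 227.0, 119.5 and 132.8 in H2A.Z dKO replicates 1 to 3. Its log2 fold change was 0.20 (SE 0.23, edgeR adjusted p = 0.987), and -0.19 without H2A.Z dKO replicate 1. Peak_32858, 22 bp and the gene-body interval of highest level, had 170.9, 176.7 and 142.0 RPKM in CTL replicates 1 to 3 and 139.3, 199.8 and 172.0 in H2A.Z dKO replicates 1 to 3. These are 11 to 23 counts, and the log2 fold change was 0.03 (SE 0.28, edgeR adjusted p = 0.999). Peak_32862, an intronic interval of 66 bp named after its values were seen, had 111.5, 85.1 and 81.8 RPKM in CTL replicates 1 to 3 and 118.7, 139.9 and 123.7 in H2A.Z dKO replicates 1 to 3, with no overlap (log2 fold change 0.42, SE 0.23, edgeR adjusted p = 0.972).

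Of 8 endothelial markers, Cdh5, Esam, Kdr, Tek and Tie1 had promoter intervals, and Emcn, Erg and Pecam1 had none. Their summed level was 97.3 to 110.5 CPM in CTL and 80.4 to 90.2 in H2A.Z dKO, without overlap and lower in H2A.Z dKO. The sum of Hdac7 overlapped between groups. Whether the endothelial share of the nuclei bears on the intervals of Hdac7 was not tested. In whole muscle, fewer nuclei of a type and lower accessibility per nucleus cannot be told apart.

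Hdac3, the deacetylase that gives the class IIa complexes their enzymatic activity, had 1 interval of 303 bp at its TSS on chromosome 18 of mm9, from 38114505 to 38114807, which is also within 1 kb of the TSS of Rell2. It held 227, 185 and 146 counts in CTL replicates 1 to 3 and 249, 172 and 204 in H2A.Z dKO replicates 1 to 3, or 122.5, 131.9 and 136.9 RPKM against 139.9, 124.8 and 134.1. All 6 values lay close together. The log2 fold change was 0.03 (SE 0.14, 95% confidence interval -0.26 to 0.32, edgeR adjusted p = 0.998).

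Ncor1, which encodes the scaffold of the corepressor complex, had 3 intervals at its 5′ end, all also within 1 kb of a TSS of Pigl, so that the accessibility of the 2 genes cannot be told apart there. Elsewhere in its gene body, 142116 bp in all, no interval was found, and none lay within 1 kb of the RefSeq TSS at 62252017. The 3 intervals summed to 60.8, 62.4 and 62.8 CPM in CTL replicates 1 to 3 and 66.9, 66.2 and 62.3 in H2A.Z dKO replicates 1 to 3 (log2 fold change 0.09, SE 0.10, edgeR adjusted p = 0.977). The leading interval, Peak_24682 (chr11:62270759-62271033), had 160.5, 170.5 and 172.5 RPKM in CTL replicates 1 to 3 and 181.4, 170.2 and 165.1 in H2A.Z dKO replicates 1 to 3. Its log2 fold change was 0.04 (SE 0.13, edgeR adjusted p = 0.994).

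**Figure D4:**
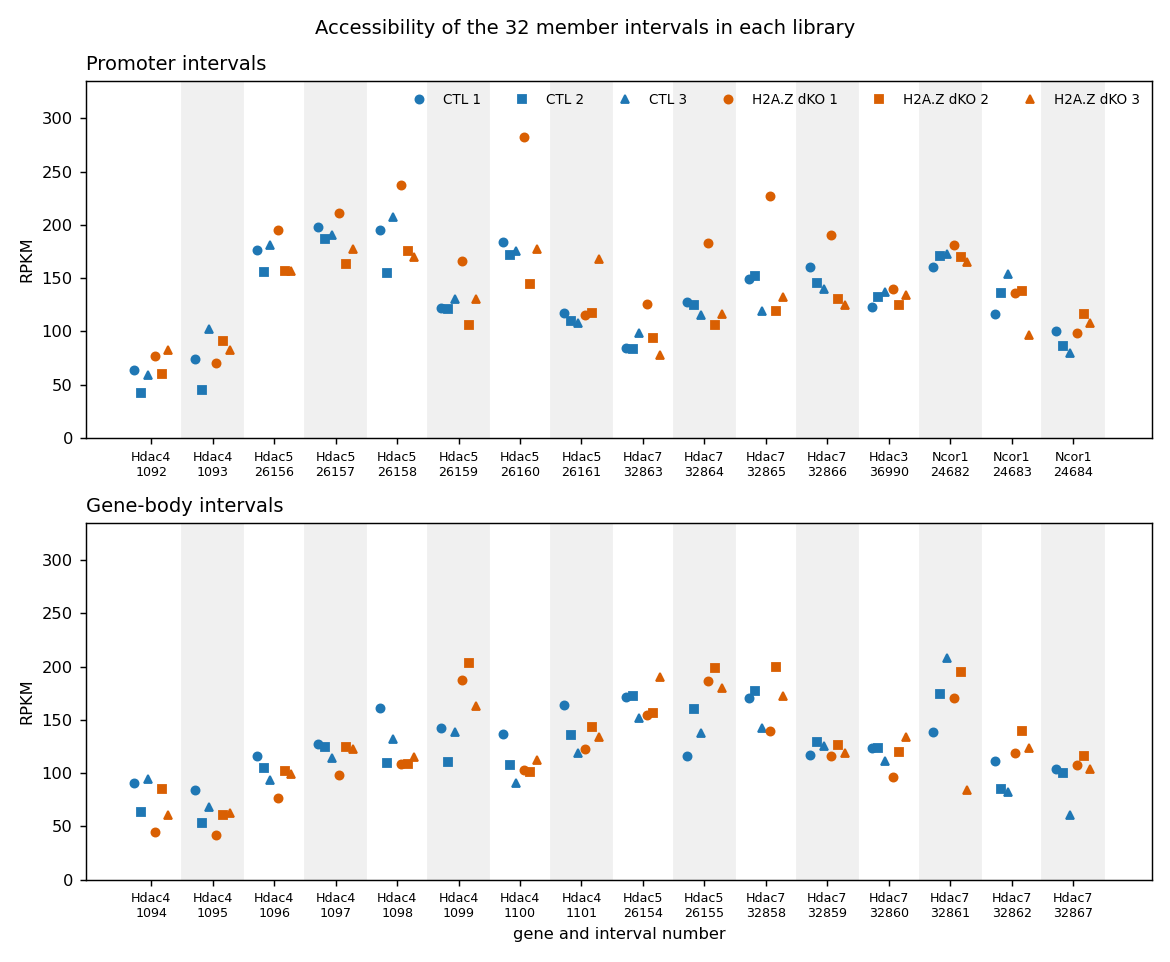
RPKM of all 32 member intervals in each library, promoter intervals above and gene-body intervals below, with colour for the group and symbol for the replicate; interval numbers are the authors' names. H2A.Z dKO replicate 1 (orange circles) is the highest library in 11 of 16 promoter intervals and in 0 of 16 gene-body intervals.

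The members differed among themselves in which library was highest, and the difference followed their position. H2A.Z dKO replicate 1 had the highest library-scaled count in 11 of the 16 promoter intervals (68.8%) and the lowest in 0. Among all promoter intervals of the table it was the highest in 31.7% and the lowest in 21.8%. In the 16 gene-body intervals it was the highest in 0 and the lowest in 8 (50%), against 7.41% and 37.3% of all gene-body intervals. The member intervals overlap and share genes, and these shares are descriptions. The promoter share of the counts of Hdac7, intervals inside another left out, was 59.4% in that library and 44.2% to 51.8% in the other 5. It stood less far apart for Hdac5, with 84.4% against 79.5% to 83.6%, and for Hdac4, with 7.66% against 4.17% to 7.47%. Over the whole table, promoter intervals held 77.5% of its counts and 73.7% to 75.4% of those of the others.

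The direction at the promoters rested on this library. Log2 fold changes were positive in 13 of the 16 promoter intervals (81.2%; 52.7% of all promoter intervals), with a median of 0.13, and in 6 of the 16 gene-body intervals (37.5%; 53.1% of all), with a median of -0.07. Without H2A.Z dKO replicate 1, 4 of the 16 promoter intervals were positive, with a median of -0.11, and 7 of the 16 gene-body intervals, with a median of -0.02. With any other library left out, 10 to 15 of the promoter intervals were positive. The median of the gene-body intervals turned to 0.01 without CTL replicate 1. The number of members past the threshold was 0 in each of these fits.

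**Figure D5:**
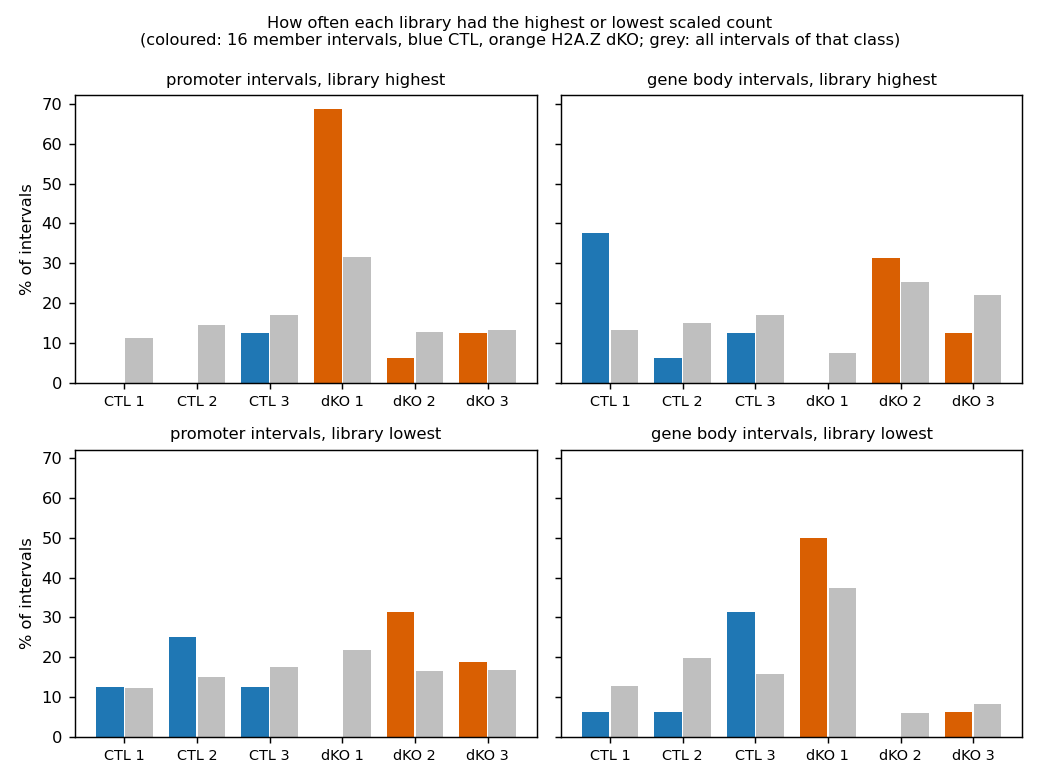
Percentage of intervals in which each library had the highest (top) or lowest (bottom) count after scaling to the library total, for promoter (left) and gene-body (right) intervals; coloured bars are the 16 member intervals of that class and grey bars all intervals of it. H2A.Z dKO replicate 1 is highest in 68.8% of member promoter intervals against 31.7% of all, and lowest in 50% of member gene-body intervals against 37.3% of all.

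The authors' table lists each interval for both groups, for H2A.Z dKO or for CTL. By the methods, regions of the groups were joined only where more than 50% of their length was shared. A listing for a single group thus does not mean that the other had no region there. Of the members, 16 (50%) were listed for H2A.Z dKO, 8 (25%) for CTL and 8 (25%) for both, against 43.4%, 17.9% and 38.7% of all intervals. Intervals inside one another carried different listings: Peak_26156, listed for CTL, contains Peak_26157 and Peak_26158, listed for H2A.Z dKO.

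Bases around the members were read from mm9, in 300 bp centred on each interval. The 16 promoter windows had a median GC content of 67.3% and an observed to expected CpG ratio of 0.777, against 64% and 0.791 in all promoter intervals. Windows of Hdac7 (73.3% to 83% GC) and Ncor1 (62.3% to 73%) were rich in GC, and those at the 3′ model of Hdac4 were not (52.7% and 56.3%). The 16 gene-body windows had 55.5% GC and a ratio of 0.123, against 52% and 0.233 in all gene-body intervals. The GC box was in 11 of 16 promoter windows (68.8%), against 64.5% of all, and in 0 of 16 gene-body windows, against 14.2%.

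The MEF2 motif, here a loose form of the sequence bound by the factors that class IIa deacetylases repress, was in 8 of the 32 windows (25%), against 4.60% of all intervals. Neighbouring windows overlap, and the 8 windows hold 4 distinct matches. At the 5′ promoter of Hdac5 the match is CTATTTTTAG (chr11:102091497-102091506), the capitals near the end of the printed Hdac5 sequence, 21 bp from the nearest vM1 TSS and inside Peak_26159. At the internal promoter of Hdac5 it is CTATTTATAG (chr11:102080297-102080306), 58 bp from a TSS. In the intron of Hdac7 it is CTATAAATAG (chr15:97642782-97642791), overlapping the edge of Peak_32860, and the fourth lies in the interval of Hdac3. The first 3 have only A and T in the free positions, as MEF2 sites do, whereas the match at Hdac3 has G and C there. Of RefSeq promoters of 300 bases, 3.69% hold the motif, among them that of Hdac9 shown above, also with G and C in the free positions.

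The E boxes CAGCTG or CACCTG, bound by myogenic factors among others, were in 11 of the 16 gene-body windows (68.8%; 45.5% of all gene-body intervals) and in 5 of the 16 promoter windows (31.2%; 30.7% of all promoter intervals). Of the printed intervals, Peak_1098 and Peak_1094 of Hdac4 hold 1 each. The AP-1 motif was in 3 windows (9.38%; 9.88% of all intervals), from 2 distinct matches, of which that of Hdac5 lies inside Peak_26154. CRE, NRF1 and ETS motifs were in 0 windows, against 1.73%, 1.003% and 3.43% of all intervals. A match is a string of letters, and binding was not measured.

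Other genes of the pathway were listed by role. Of 36 genes 33 had an interval, 139 in all, and 0 intervals and 0 genes passed an adjusted p of 0.05 in edgeR. At an unadjusted p of 0.05, 5 of the 139 intervals were higher and 4 lower in H2A.Z dKO, where 2.64% and 2.31% of all 39768 intervals were. The sums of 2 of the 33 genes were higher and of 0 lower, where 2.28% and 1.87% of all 12005 genes were. The 2 were the AMPK subunit gene Prkaa2 and the corepressor gene Tbl1xr1. Prkaa2 had 35.5 ± 2.34 CPM in CTL and 47.5 ± 8.20 in H2A.Z dKO (SD, n = 3 each; log2 fold change 0.43, SE 0.15, adjusted p = 0.971). Tbl1xr1 had 172.6 ± 17.3 and 228.0 ± 79.2 CPM (SD, n = 3 each; log2 fold change 0.42, SE 0.18, adjusted p = 0.971). Without H2A.Z dKO replicate 1 the log2 fold changes were 0.30 for Prkaa2 (SE 0.14) and 0.08 for Tbl1xr1 (SE 0.08). The median log2 fold change over the 33 genes was 0.02, against 0.01 over all genes.

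By role, all 4 MEF2 genes, the partners on DNA, had intervals. Mef2d led them with a promoter interval of 262.3 RPKM and Mef2b was lowest with 55.6 RPKM. Their sums had log2 fold changes from -0.01 (Mef2c) to 0.14 (Mef2b), 3 of 4 positive. Without H2A.Z dKO replicate 1, Mef2b was at 0.29 and 1 of 4 was positive, without H2A.Z dKO replicate 2 Mef2b was at 0.03, and without CTL replicate 2 Mef2c was at 0.09. The 4 other genes of the corepressor complex had the highest median log2 fold change of the roles, 0.24, with 4 of 4 positive. Without H2A.Z dKO replicate 1 that median was 0.07. The 6 other deacetylase genes had a median of -0.02, the 13 kinase genes with an interval one of 0.01, and the 6 genes of 14-3-3 proteins one of 0.00, which became -0.12 without that library. Camk4 and the denervation targets Dach2 and Myog had no interval.

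For likeness across libraries, the log2 CPM of each gene sum was compared with those of 10081 other protein-coding genes of at least 100 counts on average. Over the 6 libraries, the highest Pearson r was with Arf3 for Hdac5 (0.998), Dusp11 for Hdac7 (0.993) and Fam23a for Hdac4 (0.987). For Hdac3 and Ncor1 it was with Rell2 and Pigl, whose intervals are the same. Among genes that share no interval it was Gnaq for Hdac3 (0.993) and Tufm for Ncor1 (0.990). Between 46 (Ncor1) and 436 (Hdac7) genes had an r above 0.9. With 6 points and 10081 genes, a high top r can arise by chance, as can many above 0.9. The numbers to be had by chance were not computed, so these counts are descriptions. The points of all genes are the same 6 libraries, and H2A.Z dKO replicate 1 lies apart in them. Over the 5 libraries without it, the r of these pairs that share no interval ran from 0.965 (Hdac7) to 0.994 (Hdac5). Between 108 (Ncor1) and 192 (Hdac5) genes then had an r above 0.9, fewer than before for Hdac5 and Hdac7 and more for the other 3. Fewer points make a high r more frequent by chance, so these counts and those over 6 libraries are not on the same scale.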

How the data were processed

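Per the labels, the submitters processed the reads with Trimmomatic, Bowtie2, SAMtools, Picard, bedtools and MACS2 on mm9. By the methods, the authors removed PCR duplicates, shifted fragment ends to where Tn5 binds, called peaks, kept regions found in each replicate of a group and merged both groups. The deposited table holds a raw count of fragment ends for every interval in each library, with 0 sample columns unmapped. The table holds fewer intervals than the methods name for the wide peak model, and the others were not analysed here, so a gene without an interval is one without an interval in this table. Its columns of the authors' own comparison, made with DESeq2 (fold changes, errors and p-values), were not used. Counts depend on where peaks were called and on the width of the interval, and 4473 intervals overlap an earlier one.

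Groups came from the labels. Counts in all 39768 intervals, and sums for 12005 protein-coding genes, went into a robust quasi-likelihood fit of edgeR 4.0.16 (R 4.3.3) with TMM factors between 0.971 and 1.02, without a filter or a replicate block. P-values were adjusted by Benjamini-Hochberg over the whole table, with a threshold of 0.05. Standard errors were derived from the F statistic and the log2 fold change, and the 95% limits from t. The fit was tested on simulated data. With 3 libraries against 3, exact permutation tests cannot go below p = 0.1. Errors cover counting and differences among libraries, and remaining PCR copies are not covered. Tables, sequences and figures used Python 3.11.15, pandas 2.3.3, pysam 0.24.0, scipy 1.17.1 and matplotlib 3.10.9.

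The members, lists and rules were chosen with earlier results of these data known. Named are the 6 genes, the promoter and the gene-body interval of highest mean RPKM of each, and the 2 intervals of smallest p in each direction. For likeness, 1 gene per member was named, from log2 of CPM plus 0.5. Alternatives were other scalings, DESeq2 1.42.0, a filter on low counts (filterByExpr), a replicate block, each library left out, midpoint, promoter-only and widest-interval rules, and, added after seeing the data, RefSeq TSSs. RNA-seq, ChIP-seq and denervated muscles were not analysed here, and 1 listed gene is not reported by name.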

Additional observations from a re-analysis of the deposited data

How the results depend on the processing

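The counts of 0 members and 0 gene sums past the threshold held under every alternative run, in edgeR and DESeq2, and the smallest adjusted p of a member interval ranged from 0.674 (without H2A.Z dKO replicate 1) to 0.9998. With a library left out, 0 to 1 member intervals and 0 gene sums had an unadjusted p under 0.05. In the same fits 3.18% (without CTL replicate 3) to 7.95% (without H2A.Z dKO replicate 1) of all intervals did. So did 280 to 848 of the 12005 gene sums, in the same order. Replicate numbers did not pair the libraries (correlations of deviations -0.10, -0.05 and -0.03 for the 3 same-numbered pairs), and with a replicate block 0 member intervals and 0 gene sums passed.

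Directions of several small log2 fold changes turned when 1 library was left out. The ranges were -0.071 to 0.41 for Peak_1093 (Hdac4), -0.13 to 0.17 for Peak_26158 and -0.092 to 0.059 for Peak_26154 (Hdac5), -0.19 to 0.37 for Peak_32865 and -0.084 to 0.14 for Peak_32858 (Hdac7), -0.026 to 0.087 for Peak_36990 (Hdac3) and -0.020 to 0.071 for Peak_24682 (Ncor1). Values that kept their direction ranged from 0.39 to 0.58 for Peak_1099, -0.41 to -0.11 for Peak_1098, -0.64 to -0.21 for Peak_1094, -0.25 to -0.091 for Peak_1102 and -0.28 to -0.018 for Peak_1103 (Hdac4), and 0.33 to 0.59 for Peak_26155 (Hdac5), the lowest without CTL replicate 1. The smallest unadjusted p among these was 0.023, for Peak_1102 without H2A.Z dKO replicate 1, with an adjusted p of 0.571 in edgeR. For gene sums they were -0.14 to 0.038 for Hdac4, -0.062 to 0.15 for Hdac5 and -0.027 to 0.21 for Hdac7. The sum of Hdac4 over promoter intervals only was 0.31. The cause was not tested.

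Summed over all promoter intervals per summed width, the level was 121.7 RPKM for Hdac7 in CTL, and 142.5 and 149.7 RPKM for Ncor1 in CTL and H2A.Z dKO. At its RefSeq TSS, Hdac4 was at 382.9 RPKM in CTL and 336.8 in H2A.Z dKO. Of 302 alternative values computed, 278 were labelled the same and 15 changed direction. For fold changes, the same means the same direction and side of the threshold, whatever the change in size. RPKM levels, which have no direction, were labelled by the size of the change. The other 9, all of them RPKM levels or numbers of intervals at an unadjusted p under 0.05, moved beyond the spread between replicates or by over 1.5 times. Some values could not change, since the midpoint rule kept all 32 members and Hdac3 has 1 promoter interval. Intervals of 22 to 66 bp held 11 to 46 counts per library, with standard errors of 0.23 to 0.31 on the log2 scale.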
